A study of Mus musculus with 20 samples.

Results

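The 39 genes described here are the ones through which a mammalian cell answers a shortage of amino acids and loads its transfer RNAs (tRNAs). They comprise 8 enzymes of serine and one-carbon metabolism, asparagine synthetase, Atf4 with 6 further genes of the stress response around it, 3 amino acid transporters and 20 aminoacyl-tRNA synthetases. The genes were matched by symbol, with no threshold on a measured value. All 39 symbols were found among the 42748 genes of the deposited expression table, and all 39 were among the 16042 genes with enough counts to be tested. Poly(A) RNA had been sequenced from RAW264.7 cells, a mouse macrophage-like line that the labels describe as monocyte-derived and give a bone marrow source. RANKL, the cytokine that drives such cells towards osteoclasts, was given at 50 ng/ml, and I-BET, an inhibitor of the BET bromodomain proteins that bind acetylated histones, at 500 nM. The 10 groups were untreated cells at 0 h and cells given RANKL alone, I-BET alone or RANKL with I-BET for 4, 14 or 24 h. Each group held 2 libraries, called 1 and 2 below, 20 in all. No gene was deleted or introduced in any group, and untreated cells were analysed here at 0 h alone. Hours in culture and treatment therefore cannot be told apart in any comparison with untreated cells. No label says that the libraries of a group came from separate cultures, so every p-value measures only the spread between these libraries, which may be technical. In such bulk samples, fewer cells of a kind and less RNA per cell cannot be told apart.

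ATF4 is a transcription factor whose messenger RNA is translated better when amino acids run short, when unfolded proteins collect in the endoplasmic reticulum or when other insults lead to phosphorylation of the initiation factor eIF2, a program known as the integrated stress response. Its known targets include asparagine synthetase, the enzymes that make serine from a glycolytic intermediate, mitochondrial one-carbon enzymes, amino acid transporters, many cytosolic tRNA synthetases and the regulators Ddit3, Trib3, Chac1 and Sesn2. Serine supplies glycine and one-carbon units for purine and thymidylate synthesis, and the synthetases join each amino acid to its tRNA. The RNA level of Atf4 says nothing of how well it was translated. Osteoclast formation demands amino acids and mitochondrial activity, and ATF4 is known to act in osteoclast precursors.

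Library totals ran from 19051780 to 62313792 counts. Of 10 macrophage markers, 9 were above 1 RPKM (reads per kilobase of gene, scaled to the library's total) in every group, and none of 14 markers of other cell types was. The summed macrophage markers went from 4993–5186 RPKM in untreated cells to 1427–1698 in RANKL 24 h, while 9 osteoclast markers went from 33.7–59.6 to 231–295 and stood at 7.09–10.7 with RANKL and I-BET at 24 h. The part of this change of cell state in the results below was not tested. Untreated library 2 had the lowest scaling factor, 0.900, so its RPKM run low against its scaled counts, and folds below come from the scaled counts. RANKL 24 h library 2 stood apart from library 1, most widely in stress genes. Its RPKM was 6.05 times that of library 1 for Ddit4, 4.09 times for Chac1, 3.34 times for Trib3, 1.83 times for Sesn2, 1.39 times for Atf4, 1.49 times for Psph and 1.33 times for Asns. In the other 9 groups the same ratio reached at most 2.44, 1.36, 1.85, 1.21, 1.159, 1.32 and 1.12 for these genes in that order. By smaller margins it was also above that of every other group for further genes. These were Ddit3 (1.42, elsewhere at most 1.31), Psat1 (1.32 and 1.21), Sars (1.26 and 1.17), Yars (1.21 and 1.13) and Mthfd2 (1.17 and 1.11). The same held for Gars (1.14 and 1.03), Cars (1.13 and 1.08), Nars (1.12 and 1.07), Dars (1.05 and 1.04) and Farsb (1.04 and 1.01). Values without this library are given below for some, not all, of the results that it moved. The fits behind those values did not pair the libraries by number.

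The 39 genes spanned a wide range of levels. Over the 20 libraries, median RPKM was highest for Nars at 151, the transporter Slc38a2 at 146, Atf4 at 121, Shmt2 at 120 and Psat1 at 110. It was lowest for Ddit4 at 2.02, Chac1 at 1.82 and Trib3 at 0.769. The synthetases lay between Cars at 15.7 and Nars. Among the 20 synthetases the highest library was from 1.28 times the lowest, for Wars, to 1.88 times, for Cars. Among the other enzymes this ratio ran from 1.65 for Shmt2 over 2.01 for Asns and 2.54 for Mthfd2 to 3.36 for Shmt1. Among the 7 stress factors it ran from 2.35 for Atf4 and 3.01 for Ddit3 to 6.93 for Chac1, 11.1 for Ddit4 and 11.7 for Trib3. Atf4 itself ran from 98.3 RPKM in I-BET 14 h library 2 to 231 in RANKL 24 h library 2, and its next highest library was RANKL 24 h library 1 at 166.

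**Figure D1:**
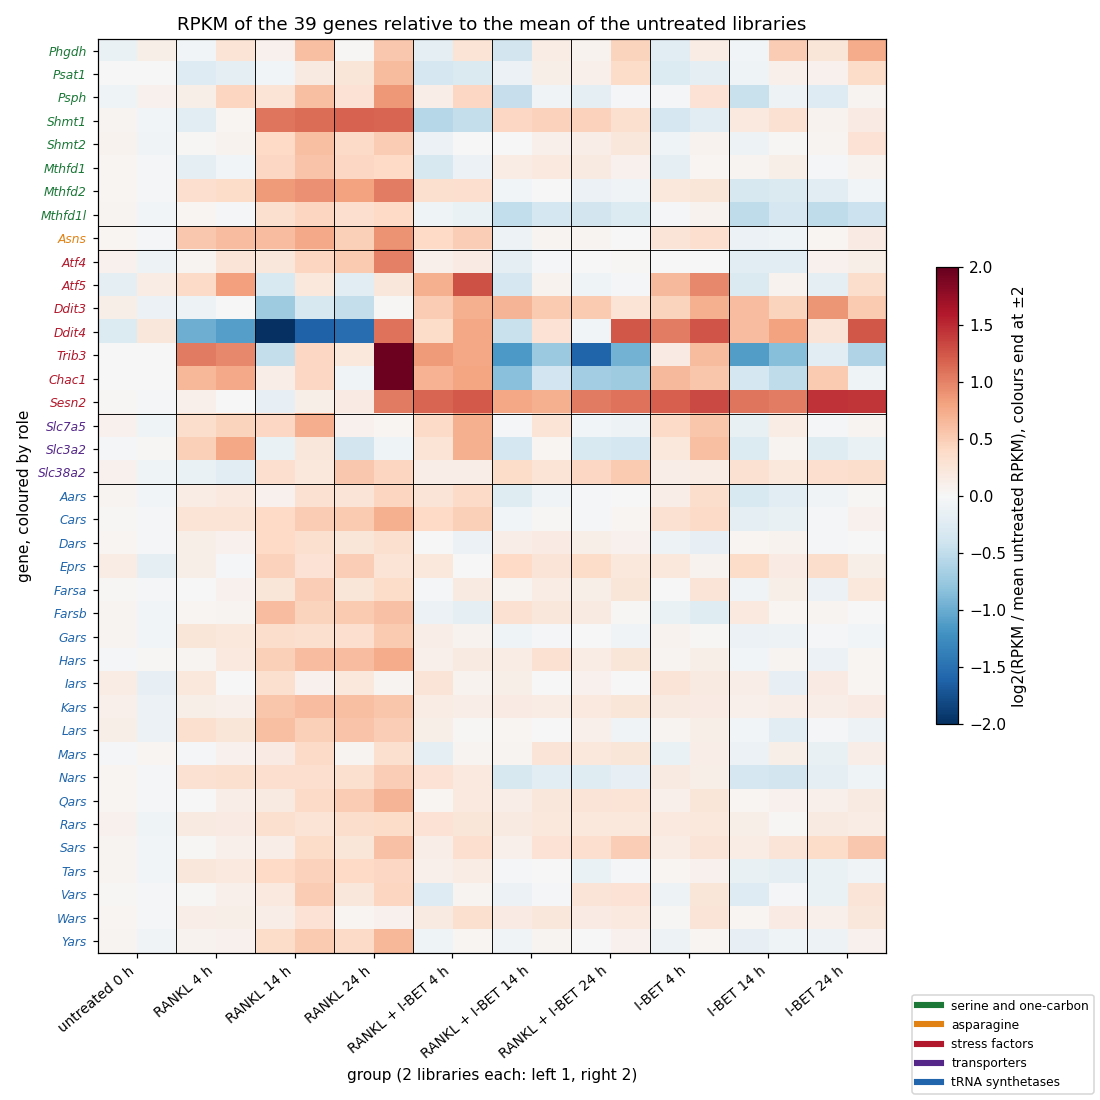
Log2 ratio of RPKM to the mean of the 2 untreated libraries for the 39 genes (rows, coloured by role) in the 20 libraries (columns, 2 for each group), with colours ending at a log2 ratio of 2 in either direction. The Shmt1, Mthfd2 and Asns rows are red at RANKL 14 h and 24 h, Sesn2 is red in all 6 groups given I-BET, and Ddit4, Trib3 and Chac1 are far higher in library 2 than in library 1 of RANKL 24 h.

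The promoters of some of these genes carry the sequence that ATF4 binds together with C/EBP proteins. Windows from 250 bases before to 50 bases after the start of transcription (RefSeq, GRCm38.p6) were matched by symbol for 30 of the 39 genes. Cars, Hars, Lars, Mars, Nars, Rars, Slc7a5, Vars and Wars had no entry. The motif TGATGNAA, searched on both strands, was in 8 of the 30 (26.7%): Aars, Asns, Chac1, Gars, Iars, Tars, Trib3 and Yars. It was in 4.51% of the 27025 genes of the same table and in 2.89% of the 9514 of them tested here. The narrower TGATGCAA, which every match of TGATGNAA with C at that position also counts towards, was in 5 of the 30 (16.7%) against 1.03% of all genes in the table. The E-box CACGTG, the site of MYC and related factors, was in 4 of the 30 (13.3%: Aars, Farsb, Iars and Tars) against 8.09% of all and 11.7% of tested genes. By role, TGATGNAA was in 5 of the 12 synthetases with a window, 2 of the 7 stress factors and 0 of the 8 serine and one-carbon enzymes. A match is a string of letters and no evidence of binding. The 39 genes include known ATF4 targets, so a higher share than over all genes is partly built into the choice of the list. The 5 windows below run from 200 bases before to 30 bases from the start and are examples. Asns, the stress genes Chac1 and Trib3 and the synthetase genes Tars and Yars each held a match and were called below. Aars and Gars also held a match and were lower with both agents than with RANKL, but are not shown. Capitals mark matches to TGATGNAA, or to its reverse complement, and to CACGTG. Asns lies at chr6:7693180-7693409 on the minus strand, Chac1 at chr2:119351042-119351271 on the plus strand, Trib3 at chr2:152344031-152344260 on the minus strand, Tars at chr15:11399629-11399858 on the minus strand and Yars at chr4:129189703-129189932 on the plus strand.
Asns: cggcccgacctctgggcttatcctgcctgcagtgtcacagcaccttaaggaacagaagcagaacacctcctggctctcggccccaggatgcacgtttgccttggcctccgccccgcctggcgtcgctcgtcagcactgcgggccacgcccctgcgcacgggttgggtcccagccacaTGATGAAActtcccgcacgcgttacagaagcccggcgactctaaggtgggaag
Chac1: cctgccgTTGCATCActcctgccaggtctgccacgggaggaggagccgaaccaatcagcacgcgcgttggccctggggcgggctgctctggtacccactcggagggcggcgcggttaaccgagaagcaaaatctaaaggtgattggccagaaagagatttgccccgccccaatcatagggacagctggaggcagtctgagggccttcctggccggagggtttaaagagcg
Trib3: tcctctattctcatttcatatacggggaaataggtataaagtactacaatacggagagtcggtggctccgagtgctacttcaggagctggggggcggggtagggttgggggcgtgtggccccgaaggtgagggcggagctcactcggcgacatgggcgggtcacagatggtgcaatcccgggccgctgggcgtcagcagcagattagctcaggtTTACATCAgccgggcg
Tars: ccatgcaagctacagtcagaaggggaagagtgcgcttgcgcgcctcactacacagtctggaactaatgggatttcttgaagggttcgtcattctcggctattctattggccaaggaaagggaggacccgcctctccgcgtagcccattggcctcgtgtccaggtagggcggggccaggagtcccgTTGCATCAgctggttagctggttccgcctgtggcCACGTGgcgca
Yars: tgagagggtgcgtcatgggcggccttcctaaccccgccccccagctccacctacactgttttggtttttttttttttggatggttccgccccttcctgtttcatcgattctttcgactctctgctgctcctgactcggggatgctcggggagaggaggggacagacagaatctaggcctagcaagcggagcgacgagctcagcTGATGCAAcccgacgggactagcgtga
Counted from the start, the match lay at −193 in Chac1, −23 in Asns and −15 in Tars, which also has an E-box at 19, and beyond the start at 3 in Yars and 14 in Trib3.

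With RANKL alone, one-carbon enzymes, Asns and most synthetases rose from 14 h on. At 14 h, 20 of the 39 genes were higher than in untreated cells and 0 lower, and at 24 h 21 were higher and 0 lower (edgeR's quasi-likelihood test, Benjamini-Hochberg adjusted p under 0.05 over all genes tested). Of all tested genes, 8.31% and 8.04% were higher, and 18.4% and 18.9% were called in either direction. The median of the 39 log2 fold changes was 0.36 at 14 h and 0.38 at 24 h, against 0.03 and 0.05 over all genes. At 4 h none passed, where 3.91% of all genes did, with 6 at an unadjusted p under 0.05, while DESeq2 called 3 and limma on log2(RPKM + 1) called 3. Over all genes, 2366 of 16042 had an unadjusted p under 0.05 in edgeR. DESeq2 called 489 of 15727 genes higher and 562 lower, and limma 419 of 11556 higher and 185 lower.

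Among the 8 serine and one-carbon enzymes, 5 rose at 14 h and the same number at 24 h, with median log2 fold changes of 0.47 and 0.40. With the library number as a block, 7 and 8 of the 8 rose. Shmt1, the cytosolic enzyme that turns serine into glycine, stood at 13.2 and 12.2 RPKM in untreated cells, 26.7 and 27.6 at RANKL 14 h and 28.7 and 28.4 at 24 h. Both RANKL groups lay above the untreated libraries with no overlap. Lack of overlap was part of the rule by which genes were chosen for library values. The log2 fold change was 1.10 ± 0.11 (SE) at 14 h (adjusted p = 1.24e-05) and 1.12 ± 0.11 at 24 h (adjusted p = 6.35e-06), and at 4 h Shmt1 had stood at 11.01 and 12.98. Shmt1 shares 184 bases with Smcr8, whose reads may not be told apart from it without strand. Mthfd2, a mitochondrial enzyme that oxidises the one-carbon unit, went from 39.1 and 37.0 RPKM to 68.5 and 71.7 at 14 h and 66.4 and 77.7 at 24 h. Every RANKL library from 14 h on was far above the untreated ones, and those at 4 h, 47.8 and 49.2, lay between. Its log2 fold change was 0.88 ± 0.10 at both 14 h (adjusted p = 5.09e-05) and 24 h (adjusted p = 3.37e-05). Shmt2, the mitochondrial partner of Shmt1, rose by 0.51 and 0.40, the cytosolic Mthfd1 by 0.50 and 0.36 and Mthfd1l, which releases formate from mitochondria, by 0.38 and 0.32. These 3 lost the call at both times without untreated library 1 or without RANKL library 2. Phgdh, Psat1 and Psph, which make serine itself, did not pass at either time: their log2 fold changes ran from 0.06 for Psat1 at 14 h to 0.56 for Psph at 24 h. With the block, Phgdh (0.35, adjusted p = 0.000455) and Psph (0.44, adjusted p = 0.000388) passed at 14 h and all 3 at 24 h.

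Asns, which makes asparagine from aspartate with nitrogen from glutamine, was already above both untreated libraries at RANKL 4 h. It stood at 44.2 and 41.6 RPKM in untreated cells, 62.1 and 65.9 at 4 h, 65.8 and 72.8 at 14 h and 59.7 and 79.7 at 24 h. No RANKL library overlapped the untreated ones. The log2 fold change was 0.51 ± 0.14 at 4 h (adjusted p = 0.0579), 0.69 ± 0.14 at 14 h (adjusted p = 0.00293) and 0.66 ± 0.14 at 24 h (adjusted p = 0.00405). Without RANKL 24 h library 2 the 24 h value was 0.39 (adjusted p = 0.069).

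Of the 7 stress factors, Atf4 alone rose, and at 24 h alone, while with the block Trib3 and Sesn2 rose there too and at 14 h Atf4 rose and Ddit3 and Ddit4 fell. Atf4 stood at 122 and 108 RPKM in untreated cells, 119 and 138 at RANKL 4 h, 134 and 155 at 14 h and 166 and 231 at 24 h. The 4 h libraries overlapped the untreated ones, and those at 14 h and 24 h lay above them. The log2 fold change at 24 h was 0.74 ± 0.15 (adjusted p = 0.00321), and without RANKL 24 h library 2 it was 0.44 (adjusted p = 0.0542). At 14 h it was 0.34 ± 0.15 (adjusted p = 0.155). The pseudokinase Trib3, an ATF4 target that feeds back on the pathway, stood at 0.892 and 2.98 RPKM at 24 h against 0.766 and 0.773 in untreated cells, and without library 2 its log2 fold change was 0.12. Chac1, which degrades glutathione, stood at 1.65 and 6.73 against 1.73 and 1.73. For both genes the untreated value lay close to that of library 1, and neither passed. Without RANKL 24 h library 2, and without the block, the 24 h log2 fold change was −0.17 for Chac1 and 0.08 for Sesn2. Ddit4, an inhibitor of the growth kinase mTORC1, was listed at 0.358 and 0.543 RPKM at 14 h against 1.38 and 1.96 (log2 fold change −1.92 ± 0.70, adjusted p = 0.0784).

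Of the 20 synthetases, 12 rose at 14 h and 13 at 24 h, with a median log2 fold change of 0.36 at both times, and all 20 had a positive value at both. With the block, 20 rose at 14 h and 17 at 24 h. The changes were small. Kars, for lysine, went from 41.1 and 35.4 RPKM to 55.9 and 58.9 at 14 h and 57.9 and 56.4 at 24 h (0.59 ± 0.08, adjusted p = 9.56e-05, and 0.53 ± 0.08, adjusted p = 0.000168). Kars, Lars for leucine, Farsb, a subunit of the phenylalanine enzyme, and Hars for histidine were each above 0.45 at both times. Cars, for cysteine, rose by 0.45 at 14 h and 0.58 at 24 h, and Qars, for glutamine, passed at 24 h alone with 0.55. Qars overlaps Qrich1 by 42763 bases, and Hars shares 198 bases with Hars2. Aars, Farsa, Iars, Mars, Sars, Vars and Wars passed at neither time without the block. With it all 7 passed at 14 h, by 0.19 to 0.37, and Aars, Farsa, Sars and Vars at 24 h. Of the transporters, Slc7a5, the light chain of the large neutral amino acid exchanger, rose by 0.58 at 14 h (adjusted p = 0.0238, and up to 0.238 with 1 library left out) and stood at 0.02 at 24 h. Slc38a2, which takes up small neutral amino acids, rose by 0.27 and 0.44.

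Calls were lost when 1 library was left out, in fits without the block. Such a fit sets a lone library against a pair, so any shift shared by libraries of the same number enters the difference. Dependence on 1 library and such a shift cannot be told apart in it. Without 1 library the count called was 8 to 16 at 14 h, with 8 without RANKL 14 h library 2, 8 without untreated library 1 and 11 without untreated library 2. At 24 h it was 9 to 22, with 9 without RANKL 24 h library 2, 11 without untreated library 1 and 13 without untreated library 2. With the library number as a block, the counts were 8 higher and 2 lower at 4 h, 31 and 2 at 14 h, and 30 and 1 at 24 h, with 14.5%, 36.3% and 36.8% of all genes called. In that fit Asns (adjusted p = 0.000165) and Slc3a2 (adjusted p = 0.000228), the heavy chain that pairs with Slc7a5, rose at 4 h, and Atf4 rose at 14 h (adjusted p = 0.0131).

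**Figure D2:**
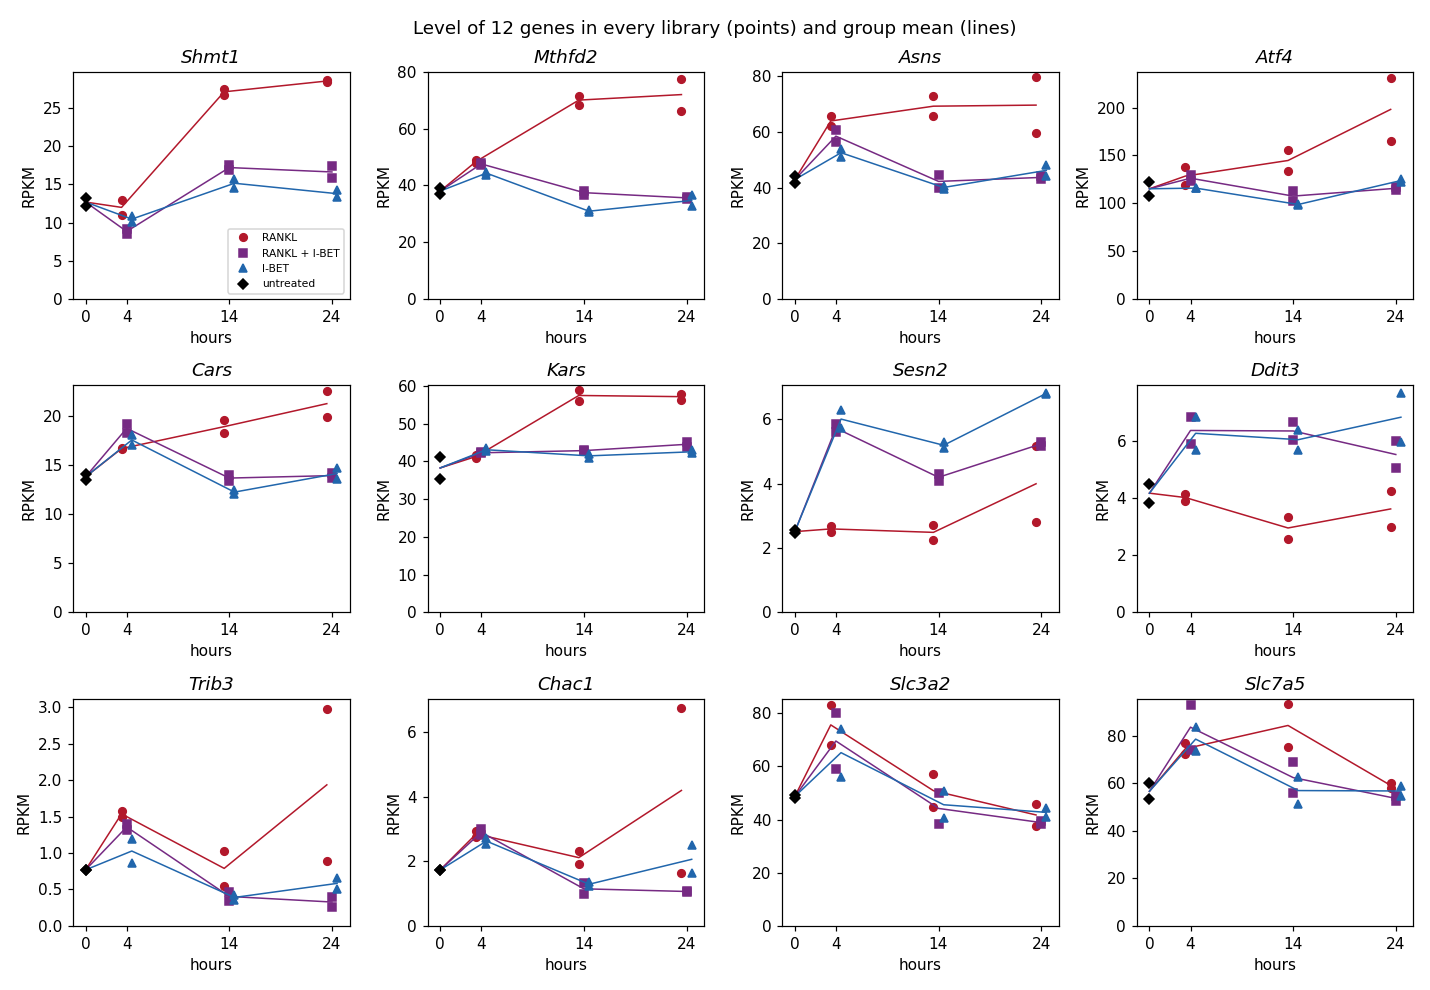
RPKM (vertical axis, from 0) against hours for 12 of the genes, with each library as a point and lines through the group means. Shmt1, Mthfd2, Asns, Cars and Kars climb with RANKL alone, Sesn2 and Ddit3 are higher wherever I-BET was given, apart from Sesn2 in RANKL 24 h library 2 at 5.17, and Slc3a2 peaks at 4 h under all 3 treatments.

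With I-BET alone the 39 genes were called about as often as all tested genes at 4 h and 14 h, and less often at 24 h. Sesn2 was the one that rose at every time. At 4 h 1 gene was higher and 3 lower, at 14 h 1 and 4, and at 24 h 3 and 1. These are 10.3%, 12.8% and 10.3% of the 39, beside 10.5%, 13.7% and 17.7% of all tested genes. Their median log2 fold change was −0.01, −0.09 and 0.00 at the 3 times. Sesn2 encodes a leucine sensor that restrains mTORC1 and is induced by ATF4 and by p53. It stood at 2.55 and 2.46 RPKM in untreated cells, 5.73 and 6.27 at I-BET 4 h, 5.28 and 5.10 at 14 h and 6.82 and 6.78 at 24 h. All 6 I-BET libraries were above both untreated ones, and the log2 fold change was 1.10 ± 0.22 (adjusted p = 0.00554), 0.95 ± 0.21 (adjusted p = 0.00852) and 1.36 ± 0.22 (adjusted p = 0.000567) in that order. The 4 h call was lost without untreated library 1 or I-BET library 2 (adjusted p up to 0.0563), and the 14 h call without either untreated library (up to 0.0789).

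Ddit3, which encodes the stress factor CHOP, rose by 0.64 ± 0.20 at 24 h (adjusted p = 0.0434), from 4.504 and 3.83 RPKM to 7.68 and 5.97. It overlaps Mars, a more highly expressed gene, by 68 bases, and the call was lost without either untreated library or I-BET library 1 (adjusted p up to 0.269). Slc38a2 rose at 24 h, from 131 and 116 RPKM to 156 and 157 (0.27 ± 0.07, adjusted p = 0.0201). These groups did not overlap, but the call was lost without any 1 of the 4 libraries (adjusted p up to 0.112). Atf4 stood at 115 and 116 RPKM at I-BET 4 h, 99.2 and 98.3 at 14 h and 122 and 126 at 24 h and did not pass at any time.

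Mthfd1l fell at 14 h and 24 h, from 31.6 and 29.6 RPKM to 21.5 and 24.1 and to 21.6 and 22.7. All 4 I-BET libraries lay below the untreated ones (−0.51 ± 0.10, adjusted p = 0.00417, and −0.54 ± 0.10, adjusted p = 0.00206). At 14 h Nars, for asparagine, went from 148 and 139 to 113 and 111 RPKM (−0.45 ± 0.09, adjusted p = 0.00481), and Mthfd2 from 39.1 and 37.0 to 30.6 and 31.3 (−0.39 ± 0.10, adjusted p = 0.0216). Both genes were lower in each I-BET library than in either untreated one, and Tars, for threonine, fell by 0.26. The Mthfd2 call was lost without any 1 of its 4 libraries (adjusted p up to 0.196), and those of Nars and Mthfd1l without untreated library 2 or I-BET library 1 (up to 0.0731 and 0.0705). At 4 h Shmt1 went from 13.2 and 12.2 to 10.1 and 10.9 RPKM (−0.43 ± 0.11, adjusted p = 0.0227), Farsb from 47.5 and 43.7 to 41.6 and 38.7 (−0.34 ± 0.08, adjusted p = 0.0167) and Dars, for aspartate, from 44.3 and 41.6 to 40.1 and 38.2 (−0.29 ± 0.08, adjusted p = 0.0308). These 4 h falls are small, lie between libraries that do not overlap, and were lost with RPKM in place of scaled counts. On that scale the median of all genes at I-BET 4 h moved to 0.11, and the split of the 39 genes was 3 higher and 0 lower. Of the 11556 genes on it, 1302 were higher and 499 lower. Without the low-count filter the split of the 39 was also 3 and 0, with 549 of 29470 genes higher and 994 lower. Leaving out any 1 of the libraries compared gave counts of 0 to 2 at 4 h, 0 to 3 at 14 h and 2 to 3 at 24 h, with 0 without untreated library 1 or I-BET library 2 at 4 h and 0 without untreated library 2 at 14 h. With the block, 5 were higher and 6 lower at 4 h, 3 and 12 at 14 h, and 6 and 5 at 24 h, where 29.0%, 29.8% and 36.2% of all genes were called.

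RANKL with I-BET, against RANKL alone at the same time, lowered the one-carbon enzymes, Asns, Atf4 and many synthetases at 14 h and 24 h and raised Ddit3 and, at 4 h and 14 h, Sesn2. At 14 h, 2 of the 39 genes were higher and 20 lower, and at 24 h 1 was higher and 19 lower. Of all tested genes, 11.2% and 12.9% were lower, and 22.1% and 26.8% were called either way. The median log2 difference over the 39 was −0.40 and −0.31, against −0.03 and −0.05 over all genes. At 4 h, 2 were higher and 1 lower, with 11.4% of all genes called. These comparisons share the RANKL libraries with those against untreated cells, so a RANKL library that is high by chance counts in both.

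Of the serine and one-carbon enzymes, 6 of 8 fell at 14 h and 4 of 8 at 24 h, with medians of −0.61 and −0.51, and with the block 7 of 8 fell at each time. Mthfd2 stood at 68.5 and 71.7 RPKM with RANKL and 36.7 and 38.2 with both agents at 14 h, and at 66.4 and 77.7 against 35.2 and 36.1 at 24 h. The groups were far apart, and with both agents the gene stood close to its untreated 39.1 and 37.0. The log2 difference was −0.95 ± 0.10 (adjusted p = 1.88e-05) at 14 h and −1.05 ± 0.10 (adjusted p = 5.52e-06) at 24 h. Mthfd1l stood at 38.2 and 41.4 against 21.8 and 24.0 at 14 h (−0.85 ± 0.10, adjusted p = 5.35e-05), with no overlap, and differed by −0.72 at 24 h. Shmt1 differed by −0.46 at 4 h, −0.70 at 14 h and −0.81 at 24 h. At 4 h it stood at 11.01 and 12.98 RPKM with RANKL and 8.55 and 9.13 with both (adjusted p = 0.0139, and up to 0.188 with 1 library left out), and at 24 h at 28.7 and 28.4 against 17.4 and 15.8. At 24 h its level with both agents was thus above the untreated 13.2 and 12.2. Psph was lower at 14 h and 24 h (−0.74 and −0.75, the latter −0.39 with adjusted p = 0.343 without RANKL 24 h library 2), and Shmt2 and Mthfd1 at 14 h.

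Asns stood at 65.8 and 72.8 RPKM with RANKL and 39.95 and 44.6 with both at 14 h, and at 59.7 and 79.7 against 44.4 and 43.0 at 24 h. The groups did not overlap at either time (−0.76 ± 0.14, adjusted p = 0.00121, and −0.71 ± 0.14, adjusted p = 0.00153). Without RANKL 24 h library 2 the 24 h difference was −0.44 (adjusted p = 0.0303). At 4 h it had stood at 62.1 and 65.9 against 56.4 and 60.7 and had not passed.

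Atf4 stood at 134 and 155 RPKM with RANKL and 102 and 113 with both at 14 h (−0.48 ± 0.15, adjusted p = 0.0354), and at 166 and 231 against 114 and 117 at 24 h (−0.81 ± 0.15, adjusted p = 0.00113). With both agents it was inside or near the range of the untreated libraries, 108 to 122. Without RANKL 24 h library 2 the 24 h difference was −0.51 (adjusted p = 0.0207), and the 14 h call was lost without RANKL library 2 or either library of both agents (adjusted p up to 0.312). At 24 h Trib3 stood at 0.892 and 2.98 against 0.254 and 0.401 RPKM (−2.60 ± 0.49, adjusted p = 0.00119), and Chac1 at 1.65 and 6.73 against 1.06 and 1.06 (−2.02 ± 0.46, adjusted p = 0.00451). Neither pair of groups overlapped, but the size rested on library 2. Without it the differences were −1.42 for Trib3 (adjusted p = 0.0197) and −0.62 for Chac1 (adjusted p = 0.12), which lost its call.

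Ddit3 and Sesn2 went the other way. Ddit3 stood at 2.55 and 3.35 RPKM with RANKL and 6.67 and 6.01 with both at 14 h, and at 2.98 and 4.25 against 5.99 and 5.06 at 24 h. The groups did not overlap (1.05 ± 0.20, adjusted p = 0.00197, and 0.57 ± 0.20, adjusted p = 0.0499). The 24 h value was 0.33 (adjusted p = 0.362) without RANKL library 1 and 0.90 (adjusted p = 0.0128) without RANKL library 2. Sesn2 stood at 2.69 and 2.498 against 5.60 and 5.84 at 4 h (1.12 ± 0.21, adjusted p = 0.00372) and at 2.24 and 2.73 against 4.30 and 4.09 at 14 h (0.70 ± 0.21, adjusted p = 0.0286, and up to 0.192 with 1 library left out). At 24 h the RANKL libraries were unlike each other, at 2.82 and 5.17, beside 5.17 and 5.30 with both agents. The 24 h difference was 0.35 and did not pass, and without RANKL library 2 it was 0.90 (adjusted p = 0.000962). Ddit4 likewise moved from 0.39 to 2.27 (adjusted p = 0.0202) without that library.

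Of the 20 synthetases, 11 fell at each time, with medians of −0.34 and −0.38. Nars stood at 181 and 180 RPKM with RANKL and 115 and 123 with both at 14 h (−0.65 ± 0.09, adjusted p = 0.000181), and at 180 and 202 against 122 and 128 at 24 h (−0.64 ± 0.09, adjusted p = 0.000142). These groups were far apart, and with both agents Nars was below its untreated 148 and 139. Cars, Lars, Gars, Tars and Yars each differed by −0.45 to −0.64 at both times, and Yars at 24 h by −0.32 (adjusted p = 0.129) without RANKL library 2. Iars, Mars, Sars, Vars, Wars, Eprs, Farsa and Rars passed at neither time without the block. With it Farsa, Iars, Mars, Rars and Vars fell at 14 h and Farsa and Rars at 24 h. Among the transporters, Slc7a5 fell at 14 h by 0.48 (adjusted p = 0.0483), and at 4 h Slc38a2 stood at 112 and 106 RPKM with RANKL and 135 and 135 with both (0.29 ± 0.07, adjusted p = 0.0204, and up to 0.135 with 1 library left out). Without 1 library, 11 to 17 genes were called at 14 h, with 11 without library 1 of both agents and 13 without RANKL library 2, and 14 to 19 were called at 24 h. At 4 h the count was 1 to 2, with 1 without RANKL library 2 or library 1 of both agents. With the block, 5 were higher and 3 lower at 4 h, 3 and 27 at 14 h, and 1 and 25 at 24 h, with 28.1%, 40.2% and 46.6% of all genes called.

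**Figure D3:**
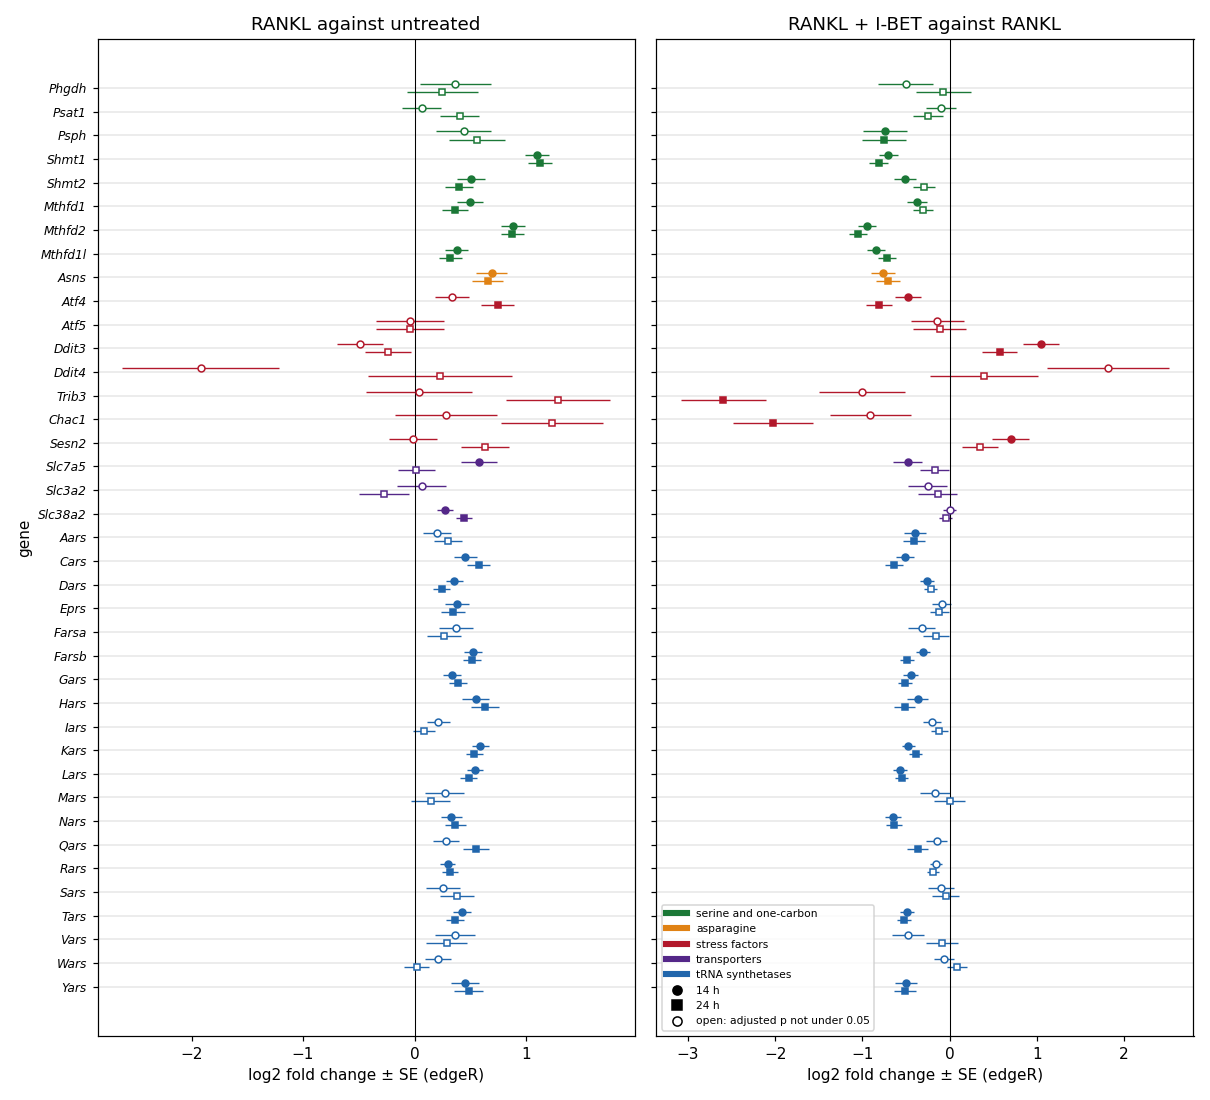
Log2 fold change ± SE (edgeR) of each of the 39 genes for RANKL against untreated cells (left) and for RANKL with I-BET against RANKL alone (right), at 14 h (circles) and 24 h (squares), filled where the adjusted p was under 0.05. The enzymes and synthetases lie right of 0 in the left panel and, but for 1 synthetase at 24 h, left of 0 in the right panel, and Ddit3 lies on the opposite side of 0 from them in the right panel.

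Against I-BET alone, cells given RANKL with I-BET differed past the threshold in none of the 39 genes at any time. Of all tested genes, 0.517% were called at 4 h, 0.904% at 14 h and 0.262% at 24 h. In edgeR 0, 6 and 1 of the 39 had an unadjusted p under 0.05, DESeq2 called 0, 1 and 0, and limma called 0 at each time. Over all genes, 859, 1439 and 902 of 16042 had such a p. At 14 h DESeq2 called 237 of 13529 genes higher and 170 lower. With the block, 0 were called at 4 h, 4 higher and 1 lower at 14 h, and 2 higher and 0 lower at 24 h, where 3.07%, 6.58% and 2.95% of all genes were called. The 4 that were higher at 14 h were Mthfd2 (37.5 against 30.9 RPKM, means of 2 libraries each, block adjusted p = 0.00343), Hars, Cars and Tars, and Phgdh was the lower one. All 20 synthetases had positive values at 14 h, with a median log2 difference of 0.15.

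The interaction is the log2 difference between both agents and RANKL at one time, minus that between I-BET at that time and untreated cells at 0 h. Only the second difference spans hours in culture, so these hours and a different action of I-BET with RANKL cannot be told apart in it. At 4 h it passed for 0 of the 39 genes and for 0.0% of all genes, and 1 of the 39 had an unadjusted p under 0.05, with 0 called by DESeq2 or limma, and 0 with the block, where 1.22% of all genes were. At 14 h it was negative for Shmt1 (−0.87 ± 0.15, adjusted p = 0.00667) and Kars (−0.50 ± 0.11, adjusted p = 0.0192), with 2.78% of all genes called either way and 0.499% called negative. The Kars call was lost without any 1 of 6 of the 8 libraries (adjusted p up to 0.12). At 24 h it was negative for 8 genes, with 5.25% of all genes called either way and 1.32% called negative. These were Shmt1, Mthfd2, Asns, Atf4, Cars, Farsb, Kars and Lars, at −0.41 for Lars to −0.85 for Shmt1, and 37 of the 39 values were below 0. Shmt1 and Mthfd2 kept the call without any 1 of the libraries. Without RANKL 24 h library 2 the count was 2 and Atf4 stood at −0.54 (adjusted p = 0.117), and without 1 library in general it was 2 to 10. It was 2 without either untreated library or I-BET library 2, 3 without either library of both agents, and 4 without I-BET library 1. With the block, 13 were negative at 14 h and 26 at 24 h, and 0 positive at both, with 11.7% and 18.3% of all genes called either way.

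Within a treatment, most of the genes called over time were higher at 24 h than at 4 h with RANKL. With both agents, 4 were higher and 8 lower without the block, and 11 and 13 with it. From 4 h to 24 h of RANKL, 18 genes were higher and 1 lower, with 22.4% of all genes called, 9.77% higher and 12.6% lower. Among the called genes Shmt1 had the largest value (1.27 ± 0.11, adjusted p = 2.24e-06), below the 1.38 ± 0.66 of Ddit4, which did not pass (adjusted p = 0.16). The Ddit4 value was −0.49 without RANKL 24 h library 2. Slc38a2 went from 112 and 106 to 179 and 167 RPKM (0.68 ± 0.07, adjusted p = 1.52e-05). Slc3a2 was the one that fell, from 68.1 and 83.2 to 37.7 and 45.8 RPKM, with no overlap (−0.84 ± 0.22, adjusted p = 0.0151). That call was lost without 4 h library 2 or 24 h library 1 (adjusted p up to 0.126). With both agents Slc3a2 fell as well, from 59.1 and 80.1 to 39.4 and 38.4 (−0.83 ± 0.22, adjusted p = 0.0219, and up to 0.199 with 1 library left out), and with I-BET alone it stood at 56.1 and 74.3 and then 41.0 and 44.4 and did not pass. With I-BET alone 3 genes were higher and 1 lower, with 10.4% of all genes called, and with both agents 4 and 8, with 15.1% called. Of the 16042 tested genes, 1083 were higher and 1339 lower with both agents. The 8 lower with both agents were Mthfd2, Atf5, Trib3, Chac1, Slc7a5, Slc3a2, Cars and Nars. Atf5, a factor related to ATF4, had its highest library there at 4 h, at 15.7 RPKM, and fell by 1.08 ± 0.30 to 24 h (adjusted p = 0.0279). Leaving out 1 library gave 6 to 19 calls with RANKL, 0 to 1 with I-BET and 2 to 7 with both. The RANKL count was 6 without 4 h library 1, 9 without 24 h library 2 and 10 without 4 h library 2. With the block, 28 were higher and 3 lower with RANKL, 9 and 8 with I-BET, and 11 and 13 with both, with 42.7%, 30.6% and 36.1% of all genes called. On the RPKM scale the split with I-BET was 1 higher and 4 lower, with 533 of 11556 genes higher and 783 lower.

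The difference that I-BET made in RANKL-treated cells grew from 4 h to 24 h for 8 of the 39 genes, in each case downwards, where 2.71% of all tested genes were called downwards and 7.28% either way. The genes were Mthfd2 (−1.003 ± 0.15, adjusted p = 0.000762), Cars (−0.79 ± 0.15, adjusted p = 0.00398), Mthfd1l, Atf4, Trib3, Kars, Nars and Tars. Mthfd2 and Cars kept the call without any 1 of the 8 libraries. For Atf4 the value was −0.77 ± 0.21 (adjusted p = 0.0445), and −0.46 (adjusted p = 0.18) without RANKL 24 h library 2. For Trib3 it was −2.40 ± 0.65 (adjusted p = 0.0399), and −1.22 (adjusted p = 0.188) without that library. Without 1 library the count was 2 to 10, being 2 without any 1 of 6 of the 8 libraries and 4 without 24 h library 2 of both agents, and with the block it was 22, all downwards, with 21.9% of all genes called.

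**Figure D4:**
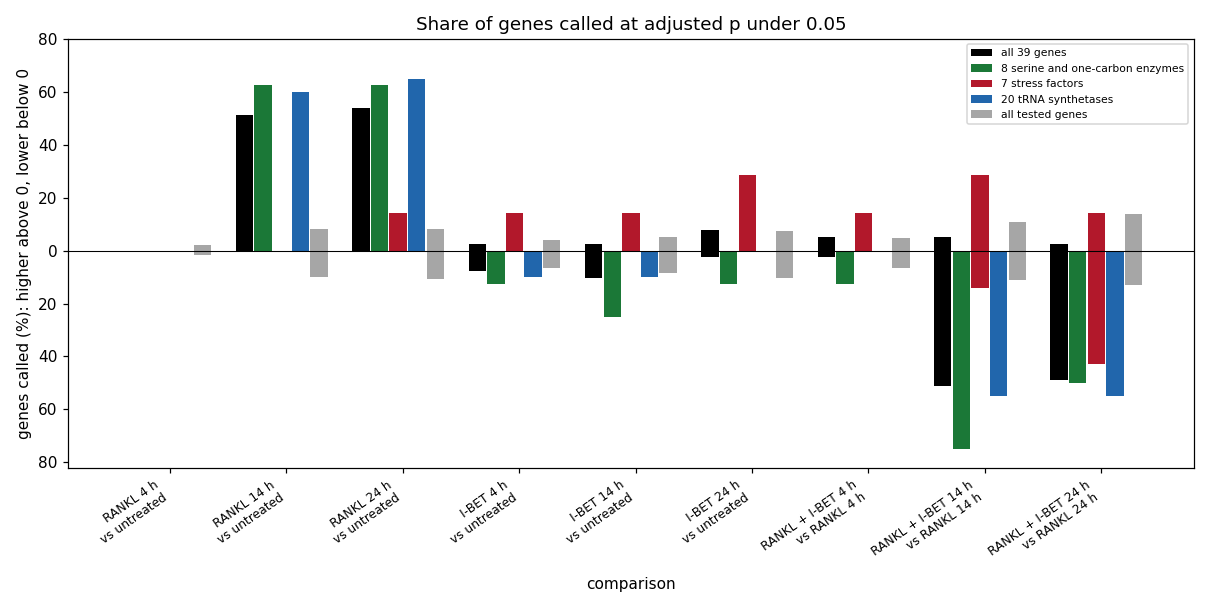
Share of genes called at an adjusted p under 0.05 (%), higher above 0 and lower below 0, in 9 comparisons, for the 39 genes, for 3 of their subsets and for all tested genes (grey). The serine and one-carbon enzymes and the synthetases stand above the grey bars upwards at RANKL 14 h and 24 h and downwards with RANKL and I-BET against RANKL at the same times, while with I-BET alone the black bars for the 39 genes reach at most 10.3%.

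Genes next to the 39 in the same pathways were followed in 7 lists chosen by function. Beside their counts stand the shares of all tested genes already given for RANKL against untreated cells, 8.31% and 8.04% higher, and 11.2% and 12.9% lower and 10.8% and 13.9% higher with both agents against RANKL, at 14 h and 24 h. These shares are without the block. Of the 16042 tested genes, 1615 and 1742 fell with RANKL at these times without it. With the block, 3068 and 3002 rose and 2759 and 2899 fell with RANKL. With both agents against RANKL, the block gave 3153 and 3707 higher and 3301 and 3768 lower. Of 17 genes of other amino acid synthesis, 3 rose at RANKL 14 h and 4 at 24 h, with 0 and 2 lower, and with the block 7 rose and 0 fell at 14 h. Cth, which makes cysteine from cystathionine, went from 0.997 and 1.06 RPKM to 5.55 and 5.51 at 14 h (2.41 ± 0.24, adjusted p = 1.39e-05) and stood at 1.03 and 0.967 with both agents (−2.52 ± 0.24 against RANKL, adjusted p = 7.31e-06). The RANKL libraries were far above the rest. Of 14 further genes of folate and glycine metabolism, 7 fell and 1 rose with both agents against RANKL at 14 h, and 6 and 1 at 24 h. With RANKL against untreated cells 4 rose and 1 fell at 14 h and 3 and 1 at 24 h, among them Gart of purine synthesis (0.78 and 0.70), and with the block 6 and 2 at 14 h and 9 and 1 at 24 h. Of 12 tested kinases, phosphatase subunits and partners of the stress response (14 listed), 2 rose and 2 fell at RANKL 14 h and 1 rose and 2 fell at 24 h, where the block gave 4 and 2. Ppp1r15a, which directs dephosphorylation of eIF2, went from 3.56 and 3.46 RPKM to 9.25 and 7.80 at 24 h (1.23 ± 0.14, adjusted p = 1.87e-05) and was 3.92 and 4.08 with both agents. Atf3, another stress-induced factor, fell with RANKL from 8.75 and 9.77 to 0.677 and 0.876 at 14 h (−3.58 ± 0.34, adjusted p = 7.8e-06). Neither pair of groups overlapped.

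Of 17 tested amino acid transporters outside the 39 (18 listed), 5 rose and 0 fell at RANKL 4 h, where 2.08% of all genes were higher, and 1 rose and 9 fell from 4 h to 24 h of RANKL, where 12.6% of all genes were lower. Against untreated cells 2 rose and 3 fell at RANKL 14 h, and with the block 5 and 4. At RANKL 24 h 2 rose and 7 fell. With both agents against RANKL at 4 h, 0 rose and 6 fell, and with the block 2 and 8. There 791 of all tested genes were higher and 1037 lower without the block. In that comparison 3 rose and 5 fell at 14 h, and 3 and 3 at 24 h. Slc7a11, which exchanges cystine for glutamate, stood at 3.005 and 2.40 RPKM in untreated cells and 17.2 and 10.8 at RANKL 4 h (2.31 ± 0.25, adjusted p = 0.000134), with no overlap. Of the 17 mitochondrial synthetases, 1 rose at RANKL 14 h and 2 at 24 h, with 0 lower, and with both agents against RANKL 1 and 2 rose and 0 fell. With the block, 6 rose and 1 fell at RANKL 14 h and at 24 h alike, and with both agents against RANKL 3 rose and 4 fell at 14 h and 7 and 3 at 24 h. Without the block, the cytosolic synthetases had 12 and 13 risers and 11 and 11 fallers in the same comparisons. Of 7 genes of the multisynthetase complex, its relatives and the mitochondrial amidotransferase, 2 rose at RANKL 14 h and 1 rose and 1 fell at 24 h, where the block gave 3 and 1. Eef1e1, a complex subunit, rose by 0.86 and 0.61 and differed by −0.83 and −0.86 with both agents. Of 11 tested amino acid sensing genes (12 listed), 0 were called at RANKL 14 h and 1 rose at 24 h, and with both agents against RANKL 3 and 4 rose and 0 fell. With the block, 0 rose and 1 fell at RANKL 14 h, and with both agents 5 and 6 rose and 1 fell at each time.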

How the data were processed

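Poly(A) RNA libraries of 20 RAW264.7 samples were read in pairs on an Illumina HiSeq, after a NEBNext Ultra preparation that does not mark strand, per the labels' protocols. The authors deposited a table of unnormalized gene counts and another of RPKM, the latter with mm10 positions. FastQC, STAR 2.5.3a, DESeq2 1.16.1 and GRCm38/mm10 stand in the submitters' processing notes. The counting tool, its strand setting and the annotation are not named in those notes or the labels. The deposited RPKM divide the same counts by gene length and library total and add no independent data.

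The counts were fitted with edgeR 4.0.16 (R 4.3.3): TMM scaling, filterByExpr by group, 10 groups in 1 robust quasi-likelihood fit with 10 residual degrees of freedom, 19 comparisons, Benjamini-Hochberg adjustment over the 16042 genes tested and a call at adjusted p under 0.05. Alternatives were DESeq2 1.42.0, scaling by RLE, leaving out the low-count filter, limma 3.58.1 on log2(RPKM + 1) over genes at 1 RPKM or more in at least 2 libraries, a block for the library number and each library left out in turn. Library numbers come from the labels. Deviations from the group means correlated between same-numbered libraries of all 45 pairs of groups (r 0.221 to 0.596, median 0.454), so the numbers pair the libraries, and blocked counts stand beside those they move by over 1.5 times.

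All 39 genes are named. Library values are given for Atf4 and for the 3 largest rises and falls among called genes whose libraries did not overlap in 9 comparisons, other library values were chosen after they were seen, and up to 2 called genes are named per further list. In the comparisons by which a gene was chosen, its lack of overlap was fixed by that choice and adds nothing to the call. The 39 genes, 7 pathway lists and 3 marker lists were chosen with earlier results of these data known. On simulated counts for RANKL with I-BET against RANKL at 24 h over 16042 genes, 12 of 67 genes changed 1.5-fold were found, 54 of 67 changed 2-fold and 64 of 66 changed 4-fold, with 9 false calls. The changed genes were drawn only from those above a minimum mean level. Simulated libraries were independent, not paired by number, and were fitted without the block, so these shares do not describe the blocked fit.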

Additional observations from a re-analysis of the deposited data

Results flagged for a closer look

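The results here are those where a test of the difference between 2 effects passed in edgeR, for 1 of 2 reasons. In the first, the difference between both agents and RANKL at one time differed from that between I-BET at that time and untreated cells at 0 h, which also spans hours in culture. At 14 h this held for Shmt1 (−0.87 ± 0.15, adjusted p = 0.00667) and Kars (−0.50 ± 0.11, adjusted p = 0.0192). At 24 h it held for 8 genes. Among the enzymes these were Shmt1 (−0.85 ± 0.15, adjusted p = 0.00377), Mthfd2 (−0.84 ± 0.15, adjusted p = 0.00292) and Asns (−0.74 ± 0.19, adjusted p = 0.042). Atf4 stood at −0.84 ± 0.21 (adjusted p = 0.034). Among the synthetases these were Cars (−0.60 ± 0.15, adjusted p = 0.0273), Farsb (−0.44 ± 0.11, adjusted p = 0.038), Kars (−0.47 ± 0.11, adjusted p = 0.0176) and Lars (−0.41 ± 0.11, adjusted p = 0.0351).

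In the second, the effect of I-BET in RANKL-treated cells differed between 4 h and 24 h. Mthfd2 stood at −1.003 ± 0.15 (adjusted p = 0.000762), Cars at −0.79 ± 0.15 (adjusted p = 0.00398), Nars at −0.56 ± 0.13 (adjusted p = 0.0176) and Mthfd1l at −0.59 ± 0.15 (adjusted p = 0.0238). Kars stood at −0.41 ± 0.11 (adjusted p = 0.0329), Tars at −0.42 ± 0.11 (adjusted p = 0.0416), Trib3 at −2.40 ± 0.65 (adjusted p = 0.0399) and Atf4 at −0.77 ± 0.21 (adjusted p = 0.0445). All 18 passed with the library number as a block as well, and the values of Atf4 and Trib3 without RANKL 24 h library 2 stand with the results above.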

How the results depend on the processing

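Over the 152 gene and comparison pairs called, none reversed under any alternative. With RLE size factors 2 lost the call, without the low-count filter 52, with limma on RPKM 16, with DESeq2 0, and 99 (65.1%) lost it when 1 library was left out. The replicate block moved the count of genes called from 0 to 10 at RANKL 4 h, 20 to 33 at RANKL 14 h, 4 to 11 at I-BET 4 h, 5 to 15 at I-BET 14 h and 4 to 11 at I-BET 24 h against untreated cells. For both agents the block moved it from 3 to 8 against RANKL at 4 h, and from 0 to 5 and 0 to 2 against I-BET at 14 h and 24 h. The block moved the interaction from 2 to 13 at 14 h and 8 to 26 at 24 h, the change from 4 h to 24 h from 19 to 31 with RANKL, 4 to 17 with I-BET and 12 to 24 with both, and the growth of the I-BET difference from 8 to 22. It took away no call. DESeq2 gave 3 at RANKL 4 h, 6 for both agents against RANKL at 4 h, 1 against I-BET at 14 h, 4 and 16 for the interaction at 14 h and 24 h, and 13 for the growth of the I-BET difference. Over all genes it called 900 of 15727 higher and 1334 lower for both agents against RANKL at 4 h. For the interaction it called 656 of 12979 higher and 184 lower at 14 h, and 855 of 14628 and 364 at 24 h. For the growth it called 1051 of 15178 higher and 589 lower. At RANKL 4 h the count was 3 without the low-count filter and 3 with limma, and without the filter it was 1 for both agents against I-BET at 24 h. Without the filter, 480 of 29470 genes were higher and 394 lower at RANKL 4 h. For both agents against I-BET at 24 h, 58 were higher and 178 lower. The cause of these moves was not tested. Leaving out 1 library gave 8 to 16 at RANKL 14 h and 9 to 22 at 24 h, 0 to 2, 0 to 3 and 2 to 3 at I-BET 4 h, 14 h and 24 h, and 1 to 2, 11 to 17 and 14 to 19 for both agents against RANKL. It gave 1 to 2 and 2 to 10 for the interaction at 14 h and 24 h, 6 to 19, 0 to 1 and 2 to 7 for the change over time with RANKL, I-BET and both, and 2 to 10 for the growth of the I-BET difference. Each such fit leaves a group of 1 library, assumed to vary like the others. None of these fits had the block, so a shift shared by same-numbered libraries enters them. That shift and dependence on 1 library cannot be told apart there. For the narrower motif TGATGCAA the share of genes with a match in a promoter window was 16.7% in place of 26.7%. With 2 libraries a group, 12 of 67 simulated 1.5-fold changes and 54 of 67 simulated 2-fold changes were found, and genes at few counts such as Trib3 and Ddit4 carry wide errors.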

Other observations

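Tarsl2, a relative of the threonine synthetase gene Tars, stood at 3.82 and 3.46 RPKM in untreated cells and rose with I-BET alone by 0.57 (adjusted p = 0.00196), 0.82 (adjusted p = 5.19e-05) and 0.81 (adjusted p = 4.14e-05) at 4 h, 14 h and 24 h. Against RANKL alone, cells given both agents were higher by 0.78, 0.98 and 1.08 at those times, and Tarsl2 kept each of these 6 calls when 1 library was left out. Slc7a8, an amino acid transporter of the same family as Slc7a5, stood at 14.2 and 12.1 RPKM in untreated cells, 22.7 and 21.8 at RANKL 4 h, 2.94 and 3.08 at 14 h and 1.20 and 1.10 at 24 h (−3.56 ± 0.16 against untreated cells, adjusted p = 1.99e-08). With both agents at 24 h it stood at 6.77 and 5.78.

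Lars2, the mitochondrial leucine synthetase gene, was listed at 88.0 RPKM in untreated library 1 and 1554 in untreated library 2. Its fall at I-BET 24 h, to 65.5 and 25.6 RPKM (−4.33 ± 1.27, adjusted p = 0.0293), was lost without untreated library 2 or either I-BET library (adjusted p up to 0.669).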
